A study of Mus musculus with 8 samples.

Results

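Osteopontin (Spp1), fibronectin (Fn1), osteonectin (Sparc), periostin (Postn), tenascin-C (Tnc), thrombospondins 1 to 4 (Thbs1, Thbs2, Thbs3 and Thbs4) and fibrillin 1 (Fbn1) are secreted proteins of the extracellular matrix. They were taken as a set of 10 genes by their symbols on the array, out of 21245 genes that could be named, and were measured with 13 of 55681 probes. RNA came from satellite cells, stem cells that lie along the fibres and rebuild them, taken from muscle 3 days after injury with cardiotoxin, a venom toxin that destroys fibres (n = 4 arrays), or from uninjured, basal muscle (n = 4 arrays). Mice of both groups were labelled as C57BL/6 males aged 3 months, with no genetic change named. The sort kept cells positive for integrin alpha 7 and removed cells with CD31, CD45, CD11b or Sca1. The labels call the samples biological replicates and do not say whether each came from its own animal, so p-values measure only the spread between these samples, which may be technical. Signals are on a log2 scale relative to the 75th percentile of the array, so 0 is the level that 75% of spots stay under.

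Matricellular proteins sit in the matrix without being its main building material and pass signals to cells through integrins, syndecans and other receptors. In skeletal muscle, fibronectin and tenascin-C belong to the surroundings of satellite cells and build up during regeneration, and osteopontin is a cytokine-like ligand made in injured muscle. Some thrombospondins, but not all, bind CD36, CD47 or latent TGF-beta, and fibrillin forms the microfibrils that hold latent TGF-beta in the matrix.

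Of the 10 genes, 9 were bright enough to be tested. Spp1, Thbs1 and Tnc rose after injury, Thbs4, Thbs2, Fbn1, Sparc and Thbs3 fell, and Fn1 was not called. Postn was not well above background on any array. The call is an adjusted p under 0.05 in limma, and it was met in the higher direction by 35.5% and in the lower direction by 24.7% of 13434 genes tested. The groups did not overlap for 8 of the 9 genes, against 57.2% of all genes tested. Either call was made for 60.2% of all genes tested, so calls were common on these arrays, and the 8 called members are read against that share. The median log2 difference of the 9 genes was -1.16, against 0.17 over all genes tested. Of all called genes, 59.0% were higher, and 81.3% in the authors' deposited table of normalized values, where the median over all genes was 0.48. With normexp background correction followed by quantile normalization that median was 0.066, and with quantile normalization alone it was 0.14.

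Upstream sequence of 2 genes that rose and 2 that fell with large differences is shown to place them beside each other. The windows hold 250 bases before and 50 after a transcript start, from RefSeq on GRCm38.p6, each written along the gene's own strand. Spp1 lies at chr5:104434861-104435160 on the plus strand (the upstream of 2 starts) and Tnc at chr4:64046887-64047186 on the minus strand (the downstream of 2). Thbs2 lies at chr17:14694213-14694512 and Thbs4 at chr13:92794769-92795068, both on the minus strand. Capitals mark CANNTG, the E-box that myogenic bHLH factors bind.
Spp1: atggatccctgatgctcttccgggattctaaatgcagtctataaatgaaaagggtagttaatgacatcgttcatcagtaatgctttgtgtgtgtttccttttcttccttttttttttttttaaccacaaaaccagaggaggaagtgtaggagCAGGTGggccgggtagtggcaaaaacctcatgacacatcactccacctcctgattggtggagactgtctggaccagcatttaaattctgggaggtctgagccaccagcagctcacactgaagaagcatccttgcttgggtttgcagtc
Tnc: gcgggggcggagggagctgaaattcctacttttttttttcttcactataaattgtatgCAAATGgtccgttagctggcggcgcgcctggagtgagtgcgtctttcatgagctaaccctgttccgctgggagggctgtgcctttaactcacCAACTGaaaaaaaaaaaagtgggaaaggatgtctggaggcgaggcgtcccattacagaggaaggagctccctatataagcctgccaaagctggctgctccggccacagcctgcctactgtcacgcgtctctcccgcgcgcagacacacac
Thbs2: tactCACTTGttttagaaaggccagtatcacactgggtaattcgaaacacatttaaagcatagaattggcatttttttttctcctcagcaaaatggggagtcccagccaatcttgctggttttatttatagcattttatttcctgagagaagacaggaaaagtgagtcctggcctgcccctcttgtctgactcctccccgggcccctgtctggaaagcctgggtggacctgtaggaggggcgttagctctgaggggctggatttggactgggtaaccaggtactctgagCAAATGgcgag
Thbs4: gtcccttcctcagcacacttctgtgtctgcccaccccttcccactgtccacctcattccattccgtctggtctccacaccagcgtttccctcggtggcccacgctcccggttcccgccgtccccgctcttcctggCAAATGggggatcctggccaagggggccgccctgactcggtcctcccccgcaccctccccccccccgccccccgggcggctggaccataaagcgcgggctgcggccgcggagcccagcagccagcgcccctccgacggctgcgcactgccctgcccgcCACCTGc
CANNTG reads the same on either strand and was present in 9 of 11 windows of the 8 genes with one, against 72.3% of 32851 windows in the table. The 2 Tnc windows overlap and share the 2 matches marked above, so the 9 windows are not all separate. The AP-1 letters TGANTCA, which also read the same on either strand, were in 0 of the 11 windows, against 7.81% of all. CATTCC, the M-CAT core of TEAD factors, searched on both strands, was in 1 window, that of Thbs4, against 14.7% of all. TATAAA, searched on both strands, was in 5 windows of 4 genes, since the 2 Tnc windows overlap and hold the same match, against 13.6% of all. No CANNTG match overlapped a match to the other letters, and the 2 CATTCC matches in the Thbs4 window share a base. No window in the table was matched for Fn1 or Thbs1.

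Several facts of the arrays bear on what follows. On each array, 50.1% to 56.7% of 59305 non-control spots passed as well above background, none was saturated, and precision is limited by how few arrays there are. Of 8 satellite cell and myogenic markers, 7 were above background on every array, and Myf5 on none. Myod1 (log2 difference 0.77) and Itga7 (1.13) were higher after injury. Pax7 (-2.95), Chodl (-6.76) and Vcam1 (-0.75) were lower, and Cdh15 and Des were not called. The summed signal of the 8 markers was 103.8 to 135.8 after injury and 214.7 to 299 in basal muscle. Without the largest gene the sums overlapped, at 102.6 to 135.3 after injury and 114.5 to 158.4 in basal muscle. Injured arrays shared 1 slide and scan and basal arrays another, so injury and slide cannot be told apart. Xist, the RNA of the inactive X chromosome, lay at 6.37 to 6.57 on injured 2, 3 and 4 and at 1.72 on injured 1, against 3.85, 2.15 and -1.12 on basal 1, 2 and 3, and was not above background on basal 4. Of 4 Y-linked genes, 0 were above background on injured 2, 3 and 4 and 4 on injured 1, against 2 each on basal 1 and 2 and 4 each on basal 3 and 4. Injured 2, 3 and 4 go against their male label, and Xist on injured 1 and basal 1, 2 and 3 does not match it either. Of 8 endothelial genes, 6 (Pecam1, Cdh5, Emcn, Tie1, Flt1 and Vwf) were higher on basal 1 and 2, at -1.99 to 3.20, than on basal 3 and 4, at -5.25 to -1.64. Kdr lay at 2.63 to 2.93 on all basal arrays, and Tek was lower on basal 1 and 2, at 3.50 and 3.13, than on basal 3 and 4, at 4.33 and 3.97. Pecam1 encodes the sort marker CD31, and lay at 3.20, 2.87, -2.20 and -3.22 on basal 1 to 4 and at -3.11 to -1.82 on injured arrays. Ly6a encodes the sort marker Sca1, and lay at 1.34, 0.07, -3.30 and -3.49 on basal 1 to 4 and at -3.20 to -1.73 on injured arrays. For the probe that stands for each member, the result is also given without basal 1 and 2 and without injured 2, 3 and 4. For genes of the lists, such a value is given where it ends a call or moves the fold by over 1.5 times. The comparison without injured 2, 3 and 4 leaves injured 1, which is assumed to vary like the basal arrays. In these bulk samples, fewer cells of a type and less RNA per cell cannot be told apart.

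**Figure D1:**
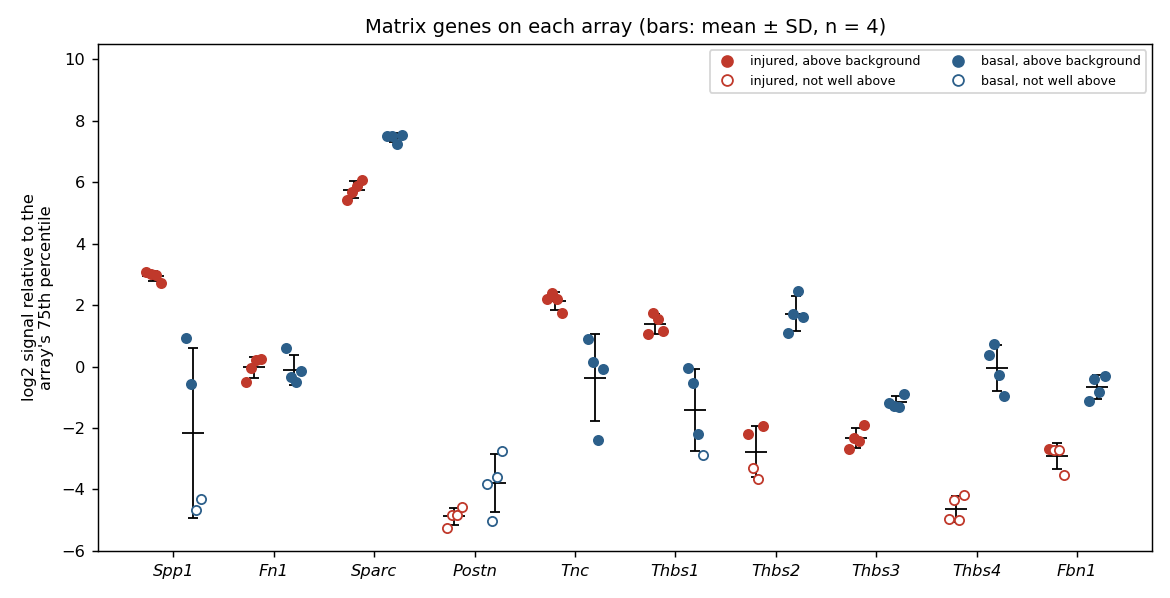
Log2 signal of each gene (y axis, relative to the 75th percentile of the array) on 4 injured arrays (red, left) and 4 basal arrays (blue, right), with mean and SD as bars and open points not well above background. Spp1, Tnc and Thbs1 lie higher on all injured arrays, Sparc, Thbs2, Thbs3, Thbs4 and Fbn1 lower, Fn1 overlaps, and levels of different genes come from different probes and cannot be ranked.

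Spp1 encodes osteopontin, a phosphorylated ligand of alpha v integrins and CD44. Its probe (chromosome 5, 104868502 to 104868561, plus strand, mm9) had log2 signals of 3.08, 3.03, 2.97 and 2.72 on injured arrays, against 0.93, -0.58, -4.68 and -4.33 on basal arrays. The injured arrays were alike and all above each basal array, while the basal arrays spread widely and only basal 1 and 2 were above background. The mean was 2.95 ± 0.16 after injury and -2.16 ± 2.77 in basal muscle (SD, n = 4 each). The log2 difference was 5.12 ± 1.17 (SE; adjusted p = 0.00513 in limma), with a 95% confidence interval of 2.45 to 7.78. Without basal 1 and 2 it was 7.45 (adjusted p = 5.0e-06 in limma). That size rests on basal 3 and 4, neither above background, so it is not a measured fold. With injured 1 as the only injured array the log2 difference was 5.24, and it was not called. With 1 array left out, the log2 difference ranged from 4.28 (without basal 3) to 6.15 (without basal 1). With normexp background correction and quantile normalization the log2 difference was 2.91, still called.

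Thbs1 encodes a trimeric thrombospondin that activates latent TGF-beta. Its probe (chromosome 2, 117952585 to 117952644, plus strand, mm9) had log2 signals of 1.06, 1.75, 1.56 and 1.17 on injured arrays, against -0.04, -0.55, -2.20 and -2.89 on basal arrays. All injured arrays were above all basal arrays, and basal 1 and 2 again lay nearest to them. Basal 4 was not above background, so the size of the difference rests in part on a dim value. Injured minus basal arrays gave a log2 difference of 2.81 ± 0.59 (SE, n = 4 each; adjusted p = 0.00335 in limma). Without basal 1 and 2 the log2 difference was 3.93 (adjusted p = 4.6e-05 in limma), and with injured 1 alone it was 2.48 (adjusted p = 0.184 in limma). It was 1.66 with normexp and quantile normalization and 1.35 in the authors' deposited table, called in both.

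Tnc encodes tenascin-C, a many-armed glycoprotein that loosens adhesion of cells to fibronectin. The brighter of its 2 probes spans 764 bases of chromosome 4 (63674248 to 63675011, minus strand, mm9) with a length of 60, so it crosses an intron. That probe carries the Tnc result and is shown for it, from the array file.
Tnc: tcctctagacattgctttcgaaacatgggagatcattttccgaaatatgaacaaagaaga
It had log2 signals of 2.20, 2.40, 2.19 and 1.74 on injured arrays, against 0.91, 0.13, -2.38 and -0.09 on basal arrays. The groups did not overlap, and here basal 3 was the low array and basal 4 lay near basal 2. The log2 difference was 2.49 ± 0.61 (SE, n = 4 each; adjusted p = 0.00745 in limma). The dimmer probe (chromosome 4, 63643728 to 63643787) gave 2.33 ± 0.42 in the fit over all 31315 probes tested (adjusted p = 0.00166 in limma), of which 31.7% were called higher and 25.1% lower. It was above background on 3 injured and 0 basal arrays, with means of -1.99 on injured and -4.31 on basal arrays, so it was at least 1.75-fold higher after injury. The bound was taken as the mean of the measured group over that of the dim group, whose signals were first raised, where lower, to the faintest signal that counted as above background on the same array. In the authors' deposited table the dimmer probe was higher on basal 2, 3 and 4 than on any injured array, so the bound does not hold there. For the brighter probe the log2 difference was 1.81 without basal 3 (adjusted p = 0.00105 in limma), 3.37 without basal 1 and 2 (adjusted p = 0.00215 in limma) and 2.56 with injured 1 alone (adjusted p = 0.190 in limma). With normexp and quantile normalization it was 1.63, still called.

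**Figure D2:**
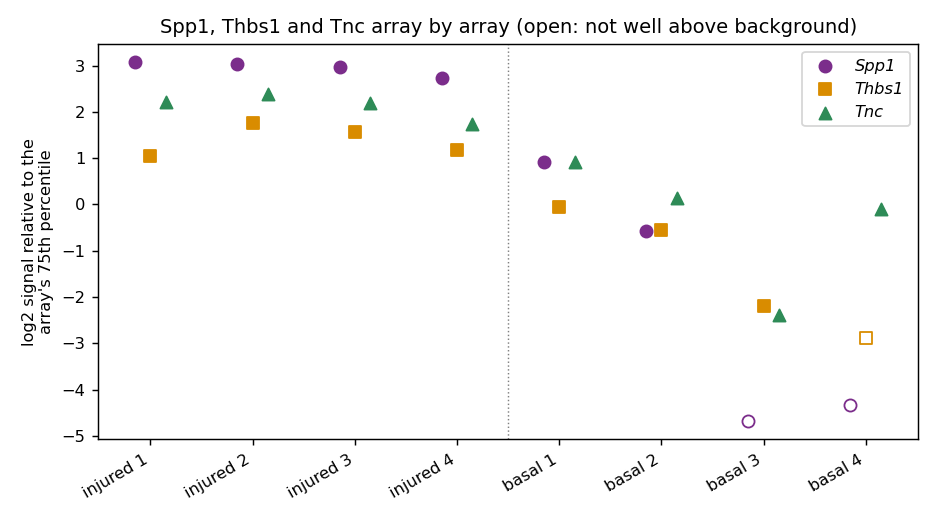
Log2 signal (y axis, relative to the 75th percentile of the array) of Spp1 (circles), Thbs1 (squares) and Tnc (triangles) on each of the 8 arrays (x axis), open where not well above background. The injured arrays lie between 1.06 and 3.08, while basal 1 and 2 lie between -0.58 and 0.93 and basal 3 and 4 between -4.68 and -0.09.

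Beside these rises, markers of macrophages and platelets, other cells known to make osteopontin or thrombospondin 1, were measured. Of 12 macrophage genes, 3 to 7 were above background on injured and 4 to 7 on basal arrays. Their summed signal, in units of the 75th percentile, was 492 to 584 after injury and 473 to 541 in basal muscle. Most of it came from the probe for Itgam, which encodes the sort marker CD11b, and without it the sums were 37.3 to 40.9 after injury and 45.1 to 50.1 in basal muscle, and of 6 genes tested 0 rose and 1, Csf1r, fell. Csf1r and Ptprc, which encodes the sort marker CD45, were above background on 4 injured and 4 basal arrays, and Adgre1 and Fcgr1 on 3 and 3. Cd68 was above background on 1 injured and 3 basal arrays, Cd14 on 1 and 1, and Cx3cr1 on 0 and 2. Ccr2 and Mrc1 were above background on 0 injured and 0 basal arrays, and C1qa and Lyz2 on 1 injured and 0 basal arrays each. C1qa lay at -4.16 to -2.44 on injured arrays, against -5.14 to -4.35 on basal arrays. Of 5 platelet genes, 2 to 3 were above background in either group, with sums of 3.41 to 3.83 after injury and 3.07 to 3.66 in basal muscle. Most of these sums came from Gp1bb, and without it they were 0.282 to 0.530 after injury and 0.331 to 0.613 in basal muscle. Ppbp was above background on no array. Pf4 was above background on injured 2 and 3, at -2.21 and -2.66, and on 0 basal arrays, at -5.23 to -4.19. The part of macrophage and platelet RNA in the rises was not tested. Of 8 endothelial genes, 4 to 6 were above background on injured and 5 to 8 on basal arrays. Their sums were 9.38 to 11.7 on injured arrays, against 41.4 and 33.8 on basal 1 and 2 and 27.7 and 22.8 on basal 3 and 4. Most of the injured sums came from Kdr, and without it the sums were 1.01 to 1.74 on injured and 16.6 to 33.8 on basal arrays. On basal 3 and 4 most of what remained came from Tek, at 4.33 and 3.97, against -1.24 to -0.44 on injured arrays. The other 6 genes lay at -5.25 to -1.64 on basal 3 and 4 and at -5.34 to -1.82 on injured arrays. The part of endothelial RNA in the basal levels of Spp1 and Thbs1 was not tested.

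Fn1 encodes fibronectin, an adhesive glycoprotein of the provisional wound matrix and a ligand of several integrins. Its probe (chromosome 1, 71632116 to 71632175, minus strand, mm9) had log2 signals of -0.49, -0.06, 0.20 and 0.25 on injured arrays, against 0.60, -0.35, -0.50 and -0.16 on basal arrays. The groups overlapped over most of their range. Injured minus basal arrays gave a log2 difference of 0.079 ± 0.27 (SE, n = 4 each; adjusted p = 0.813 in limma), with a 95% confidence interval of -0.53 to 0.69. The interval holds differences in both directions. It was 0.31 without basal 1 and 2 and -0.38 with injured 1 alone, and not called in either. Relative to the median of all genes it was -0.092, against 0.78 in the authors' deposited table, where it was not called (1.26, adjusted p = 0.201 in limma).

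Sparc encodes osteonectin, a collagen-binding glycoprotein that limits cell spreading. Its brighter probe (chromosome 11, 55208939 to 55208998, minus strand, mm9) had log2 signals of 5.43, 5.68, 5.88 and 6.07 on injured arrays, against 7.50, 7.49, 7.23 and 7.55 on basal arrays. Every injured array was below every basal array, with little spread in either group. The log2 difference was -1.68 ± 0.16 (SE, n = 4 each; adjusted p = 7.5e-05 in limma). The dimmer probe, at 55208003 to 55208061, had log2 signals of 2.79, 2.85, 2.87 and 3.20 on injured arrays, against 3.67, 3.79, 3.77 and 4.41 on basal arrays, and a difference of -0.98 ± 0.19 (adjusted p = 0.00255 in limma). Both probes were lower after injury by different amounts. Sparc was called in every setting tried, with log2 differences of -2.02 to -1.02. For the brighter probe the log2 difference was -1.63 without basal 1 and 2 and -2.02 with injured 1 alone.

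Postn encodes periostin, a fasciclin-domain protein of wounds. Its probe (chromosome 3, 54194840 to 54194899, plus strand, mm9) lay at -5.24, -4.82, -4.83 and -4.58 on injured arrays, against -3.82, -5.03, -3.61 and -2.75 on basal arrays, above background on none. No direction is given for it.

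Thbs2 encodes the other trimeric thrombospondin, an inhibitor of blood vessel growth. Its probe covers 1264 bases of chromosome 17 (14804526 to 14805789, minus strand, mm9) and so also crosses an intron. It is shown from the array file because Thbs1 and Thbs2 differed in direction.
Thbs2: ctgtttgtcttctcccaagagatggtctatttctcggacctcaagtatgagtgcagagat
Its log2 signals were -2.20, -3.29, -3.66 and -1.92 on injured arrays, against 1.10, 1.70, 2.47 and 1.60 on basal arrays. Only injured 1 and 4 were above background after injury, and the groups lay far apart. Injured minus basal arrays gave a log2 difference of -4.49 ± 0.44 (SE, n = 4 each; adjusted p = 7.3e-05 in limma), with a size that rests in part on dim values. Without basal 1 and 2 it was -4.81, and with injured 1 alone it was -3.92 (adjusted p = 0.0157 in limma). It was -2.55 with normexp and quantile normalization and -2.51 in the authors' deposited table, called in both.

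Thbs4 and Thbs3 encode thrombospondins that form pentamers, and Thbs4 is known from tendon and muscle attachment. The Thbs4 probe (chromosome 13, 93521565 to 93521624, minus strand, mm9) had log2 signals of -4.98, -4.35, -5.00 and -4.19 on injured arrays, against 0.38, 0.72, -0.28 and -0.97 on basal arrays. It was above background on every basal array and on no injured array. With means of -4.63 on injured and -0.040 on basal arrays, Thbs4 was at least 6.63-fold lower after injury (log2 difference in the fit -4.59 ± 0.37, adjusted p = 3.3e-05 in limma). The brighter Thbs3 probe (chromosome 3, 89030682 to 89030741, plus strand, mm9) had log2 signals of -2.67, -2.31, -2.43 and -1.89 on injured arrays, against -1.19, -1.27, -1.33 and -0.88 on basal arrays. The groups did not overlap though they lay close. The Thbs3 log2 difference was -1.16 ± 0.19 (SE, n = 4 each; adjusted p = 9.4e-04 in limma). A second Thbs3 probe that overlaps the first, at 89030667 to 89030726, gave -1.92 ± 0.31 (adjusted p = 9.8e-04 in limma) and was above background on 1 injured and 4 basal arrays. In the authors' deposited table neither call was made, at -1.37 for Thbs4 (adjusted p = 0.0761 in limma) and -0.15 for Thbs3 (adjusted p = 0.745 in limma). With normexp and quantile normalization the differences were -1.43 and -0.41, both called. The bound for Thbs4 thus holds for the percentile scaling, and not for these values or the authors' deposited table. The differences were also taken with arrays left out. With injured 1 alone they were -4.94 and -1.50, and without basal 1 and 2 they were -4.00 and -1.22, all called.

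Fbn1 encodes fibrillin 1. Its probe (chromosome 2, 125126727 to 125126786, minus strand, mm9) had log2 signals of -2.70, -2.72, -2.71 and -3.52 on injured arrays, against -1.12, -0.40, -0.82 and -0.31 on basal arrays. Only injured 1 was above background after injury, and no injured array reached a basal one. The log2 difference was -2.25 ± 0.25 (SE, n = 4 each; adjusted p = 1.5e-04 in limma), -2.35 without basal 1 and 2 and -2.03 with injured 1 alone, called in each. It was -0.77 with normexp and quantile normalization, still called, and -0.022 in the authors' deposited table, where the call was lost (adjusted p = 0.973 in limma).

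**Figure D3:**
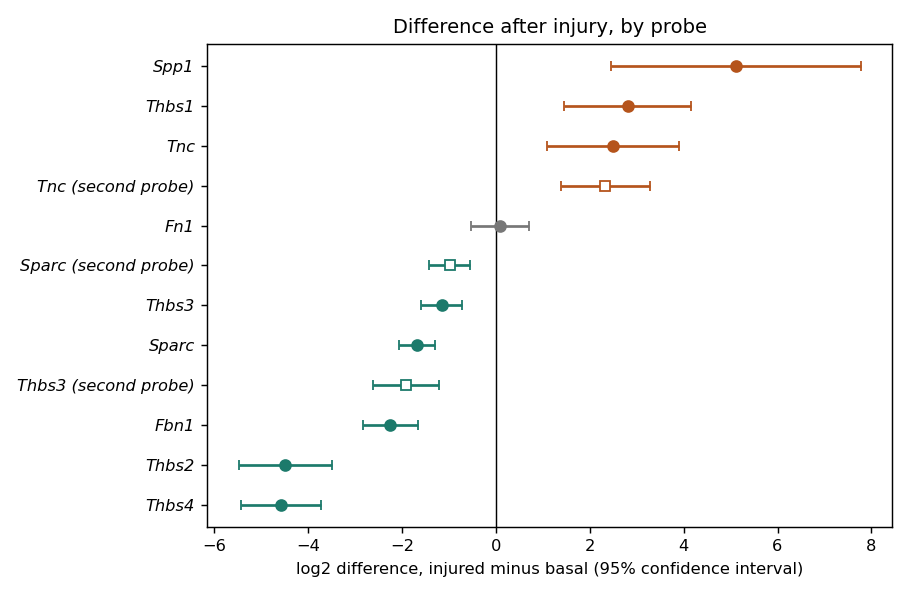
Log2 difference of injured minus basal arrays (x axis) for the 12 probes tested, with 95% confidence intervals, circles for the probe that stands for its gene and open squares for the second probe. Spp1, at 5.12, has the widest interval, Fn1 spans 0, and both probes of Tnc, Sparc and Thbs3 lie on the same side.

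Markers of other cells of muscle were measured beside these falls. All 4 fibro-adipogenic progenitor genes tested, 5 of 7 pericyte and smooth muscle genes and 4 of 5 Schwann cell genes were lower after injury, and of 2 tenocyte genes tested 1 was higher and 1 lower, where 24.7% of all genes tested were lower and 35.5% higher. Of 7 fibro-adipogenic progenitor genes, 1 to 3 were above background on injured and 4 to 5 on basal arrays, with sums of 6.40 to 9.22 after injury and 55.9 to 85.0 in basal muscle. Their defining receptor Pdgfra was above background on 0 injured and 0 basal arrays. Of 5 Schwann cell genes, 3 to 4 were above background on injured and 5 on basal arrays, with sums of 6.32 to 8.65 after injury and 46.7 to 78.4 in basal muscle. Of 7 pericyte and smooth muscle genes, 3 were above background on injured and 6 to 7 on basal arrays, with sums of 4.45 to 8.37 after injury and 12.9 to 16.4 in basal muscle, and Rgs5 and Pdgfrb were above background on 0 injured and 4 basal arrays. Of 4 tenocyte genes, 1 to 2 were above background on injured and 2 to 3 on basal arrays, with sums of 7.22 to 9.72 after injury and 3.15 to 4.89 in basal muscle, and Tnmd was above background on no array. Most of the tenocyte sum came from Scx, and without it the sums were 0.230 to 0.402 after injury and 0.617 to 0.973 in basal muscle. Without the gene that made the largest part of them, the Schwann cell sums were 1.79 to 2.13 after injury and 3.101 to 31.35 in basal muscle, and the progenitor sums 0.363 to 1.09 after injury and 16.0 to 30.9 in basal muscle. The part of these cells in the falls of Thbs4, Thbs2, Fbn1, Sparc and Thbs3 was not tested.

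Genes around the set were read from lists of receptors, relatives, microfibril genes and enzymes. Of 22 receptor genes, 17 were tested, and 6 rose and 4 fell, with a median log2 difference of 0.46. These counts are near the shares over all genes tested, of which 35.5% were higher and 24.7% lower. Itgb6, the beta chain of an integrin that binds fibronectin, tenascin-C and latent TGF-beta, had log2 signals of 1.14, 1.48, 1.89 and 1.56 on injured arrays, against -0.75, -1.63, -3.92 and -1.71 on basal arrays. Itgb6 thus rose on every injured array, by 3.52 ± 0.59 on the log2 scale (adjusted p = 0.00107 in limma). Only 3 of 4 basal arrays had Itgb6 above background, so that size rests in part on a dim value. The heparan sulfate proteoglycan Sdc1 rose by 1.48 ± 0.16 (adjusted p = 1.2e-04 in limma). Itgb1, the common beta chain, rose by 0.74 ± 0.16 (adjusted p = 0.00357 in limma). It missed the threshold under quantile scaling (0.41, adjusted p = 0.0648 in limma) and in the authors' deposited table (0.41, adjusted p = 0.269 in limma), where it lay -0.071 from the median of all genes. Sdc4, a fibronectin co-receptor of satellite cells, had log2 signals of 3.53, 3.54, 3.11 and 2.73 on injured arrays, against 5.04, 5.66, 5.18 and 4.47 on basal arrays. Sdc4 was lower on every injured array, by a log2 difference of -1.86 ± 0.28 (adjusted p = 6.3e-04 in limma). Itgb5, which pairs with alpha v for osteopontin and vitronectin, had a log2 difference of -1.99 ± 0.37 (adjusted p = 0.00181 in limma). Itga8, an integrin chain for fibronectin and tenascin-C, was at least 1.98-fold lower after injury (means -4.89 in injured and -1.78 in basal muscle, adjusted p = 5.0e-05 in limma). Neither Itgb5 (-1.98, adjusted p = 0.109 in limma) nor Itga8 (-0.73, adjusted p = 0.166 in limma) was called from the authors' deposited table. With injured 1 alone 1 receptor was higher and 3 lower, and Itgb6, Itgb1 and Sdc4 were not called. The log2 difference of Itgb6 was 4.33 without basal 1 and 2 and 2.88 without basal 3, called in both. With normexp and quantile normalization, Itgb6 was at 2.06, Sdc1 at 0.78, Itgb5 at -0.63 and Itga8 at -0.73, all called. The bound for Itga8 thus holds for the percentile scaling, and not for this value or the authors' deposited table. In the authors' deposited table Sdc1 was at 2.66 and Sdc4 at -1.22, both called.

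Of 20 matricellular relatives, 13 were tested, and 1 rose and 8 fell, with a median log2 difference of -1.54. Over all genes tested, 35.5% were higher and 24.7% lower. Ccn4, a CCN protein downstream of Wnt signals, had log2 signals of 1.21, 1.60, 1.86 and 1.42 on injured arrays, against 0.49, 0.22, -1.55 and -0.90 on basal arrays. Ccn4 rose by 1.96 ± 0.43 (adjusted p = 0.00415 in limma), a call lost with injured 1 alone (1.65, adjusted p = 0.215 in limma). Sparcl1, the relative of osteonectin also called hevin, was at least 12.2-fold lower (means -4.90 in injured and 0.84 in basal muscle, adjusted p = 3.6e-05 in limma). Vtn, the integrin ligand vitronectin, was at least 11.7-fold lower (means -4.78 in injured and 0.78 in basal muscle, adjusted p = 2.1e-06 in limma). Tnxb, tenascin-X, moved against Tnc, with log2 signals of -2.41, -2.34, -2.98 and -2.88 on injured arrays, against 2.32, 2.76, 3.28 and 3.01 on basal arrays. Its log2 difference was -5.49 ± 0.24 (adjusted p = 2.1e-06 in limma). Only 2 of 4 injured arrays had Tnxb above background. The sizes of these falls were smaller with normexp and quantile normalization, at -2.23 for Sparcl1, -2.13 for Vtn and -3.59 for Tnxb, all called, so the bounds hold for the scaling by the 75th percentile. In the authors' deposited table they were -2.19, -3.17 and -4.52, and Ccn4 was at 2.66, all called. Without basal 1 and 2, Ccn4 was at 2.75 and Sparcl1 at -4.98, both called. With normexp and quantile normalization Ccn4 was at 1.36, still called. With injured 1 alone 0 relatives were higher and 5 lower. Of 4 genes of osteopontin's own family, its neighbours on the chromosome, Ibsp, Dmp1, Mepe and Dspp, only Dspp was tested, and it was not called (-0.077, adjusted p = 0.746 in limma).

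Of 18 microfibril and elastic fibre genes, 15 were tested, and 1 rose and 10 fell, with a median log2 difference of -1.64. The shares over all genes tested were 35.5% higher and 24.7% lower. Eln, elastin, had log2 signals of -3.47, -2.27, -4.97 and -0.63 on injured arrays, against 3.58, 3.62, 2.30 and 2.15 on basal arrays. Every injured array was below every basal array, and 2 of 4 injured arrays had Eln above background. The log2 difference of Eln was -5.74 ± 0.84 (adjusted p = 5.5e-04 in limma). It was -5.03 without injured 3, -6.48 without injured 4, -6.38 with injured 1 alone, -5.06 without basal 1 and 2, -3.67 with normexp and quantile normalization and -2.44 in the authors' deposited table, called in each. Ltbp4, which ties latent TGF-beta to microfibrils, had log2 signals of 1.72, 1.59, 1.79 and 2.06 on injured arrays, against 6.74, 7.05, 7.09 and 7.19 on basal arrays, a log2 difference of -5.22 ± 0.15 (adjusted p = 3.3e-07 in limma). The mean of all Ltbp4 probes gave -3.42 and the authors' deposited table -4.57, both called. Fbln2, a fibulin, had a log2 difference of -2.86 ± 0.36 (adjusted p = 2.6e-04 in limma), a call lost in the authors' deposited table (-1.23, adjusted p = 0.164 in limma). It was -2.13 with normexp and quantile normalization and -3.73 with injured 1 alone, called in both. Efemp2, another fibulin, rose by 0.51 ± 0.16 (adjusted p = 0.0220 in limma), or 0.34 relative to the median of all genes. That call was lost without any of injured 2, 3 and 4 (adjusted p 0.0522 to 0.0534 in limma), in the authors' deposited table (1.45, adjusted p = 0.0719 in limma), with the replicate block (0.51, adjusted p = 0.0502 in limma) and with injured 1 alone (0.43, adjusted p = 0.412 in limma). With injured 1 alone 0 microfibril genes were higher and 7 lower.

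Of 18 enzymes that cut, cross-link or modify these proteins, 14 were tested, and 1 rose and 10 fell, with a median log2 difference of -2.20. Among all genes tested, 35.5% were higher and 24.7% lower. Ctsl, a lysosomal protease, had log2 signals of 3.00, 3.20, 2.34 and 3.11 on injured arrays, against 1.61, 0.97, 0.84 and 0.68 on basal arrays, and rose by 1.89 ± 0.26 (adjusted p = 3.8e-04 in limma). Mmp2, which degrades gelatin and other denatured collagen, was at least 77.4-fold lower (means -3.69 in injured and 3.51 in basal muscle, adjusted p = 2.7e-07 in limma). Adamts1, a protease that cuts proteoglycans and thrombospondins, had a log2 difference of -4.16 ± 0.25 (adjusted p = 8.7e-06 in limma). Tgm2, the transglutaminase that cross-links fibronectin and osteopontin, had a log2 difference of -3.38 ± 0.70 (adjusted p = 0.00315 in limma). Neither Adamts1 (-1.63, adjusted p = 0.0574 in limma) nor Tgm2 (-1.94, adjusted p = 0.144 in limma) was called from the authors' deposited table, and with injured 1 alone Tgm2 was not called (-4.22, adjusted p = 0.0815 in limma) and 1 enzyme was higher and 7 lower. Tgm2 was at -2.10 without basal 1 and 2, at -2.54 as the mean of its probes and at -2.61 with normexp and quantile normalization, called in each. Only 2 of 4 injured arrays had Adamts1 above background. With normexp and quantile normalization Mmp2 was at -4.41 and Adamts1 at -2.34, both called, so the bound for Mmp2 holds for the scaling by the 75th percentile. Mmp2 was at -4.39 and Ctsl at 2.66 in the authors' deposited table, both called. Fam20c, the kinase of osteopontin, was not called (0.068, adjusted p = 0.701 in limma). Without basal 1 and 2, the counts were 7 receptors higher and 4 lower, 1 relative higher and 7 lower, 2 microfibril genes higher and 10 lower, and 2 enzymes higher and 10 lower. In that setting 4850 of all 13434 genes tested were higher and 3485 lower.

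**Figure D4:**
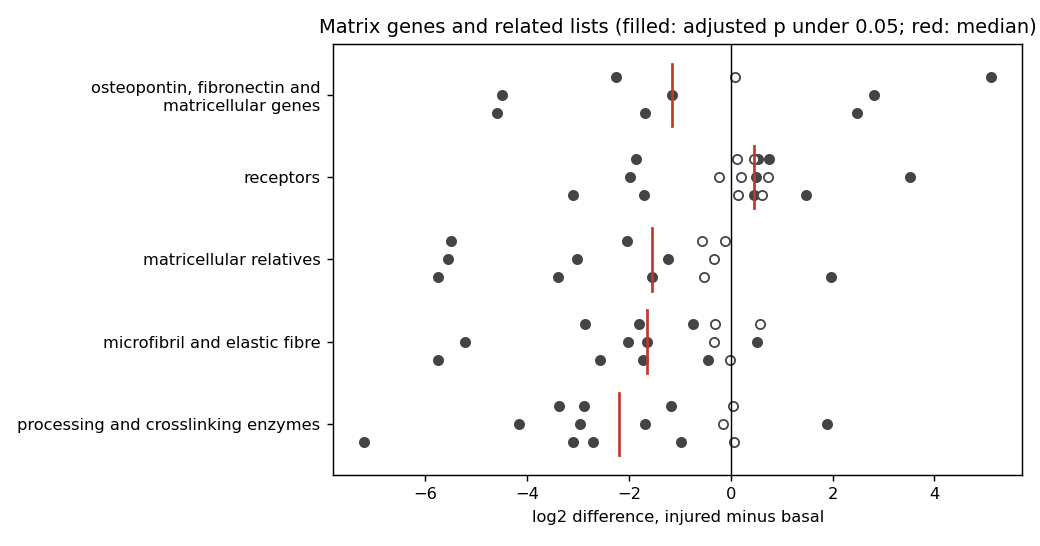
Log2 difference of injured minus basal arrays (x axis) for each gene tested, 1 point a gene, by list, filled where the adjusted p was under 0.05, with the median of each list in red. The receptors have a median of 0.46, and the other lists lie mostly below 0, with medians of -1.16, -1.54, -1.64 and -2.20 from top to bottom.

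Among the members themselves, Spp1 and Thbs1 had a Pearson r of 0.98 over the 8 arrays, Spp1 and Tnc of 0.93, and Sparc and Thbs3 of 0.97. These values describe arrays that share a slide within each group and follow the difference between groups. Of 13425 genes without missing values, Msln, Trp53i11 and Pmch had patterns most like that of Spp1, with r of 0.998 to 0.999. For Tnc they were Magohb, Dlgap5 and Cenpe and for Thbs1 Cdc5l, Ndufb2 and Rraga, with r of 0.995 to 0.998 for both. For Sparc they were Fam78b, Dcn and Bgn (r of 0.993 to 0.994), and for Thbs2 Ankrd29, Fmo5 and Filip1l (r of 0.993 to 0.996). For Thbs4 they were Igfbp6, Parp10 and Dusp1 (r of 0.995 to 0.998), for Thbs3 Anxa9, Lman1l and Ccdc80 (r of 0.981 to 0.989) and for Fbn1 Plekha6, Gnptg and Rffl (r of 0.989 to 0.995). For Fn1, whose groups overlapped, they were Cplx2, Add1 and Ap2b1, with r of 0.936, 0.927 and 0.915.

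**Figure D5:**
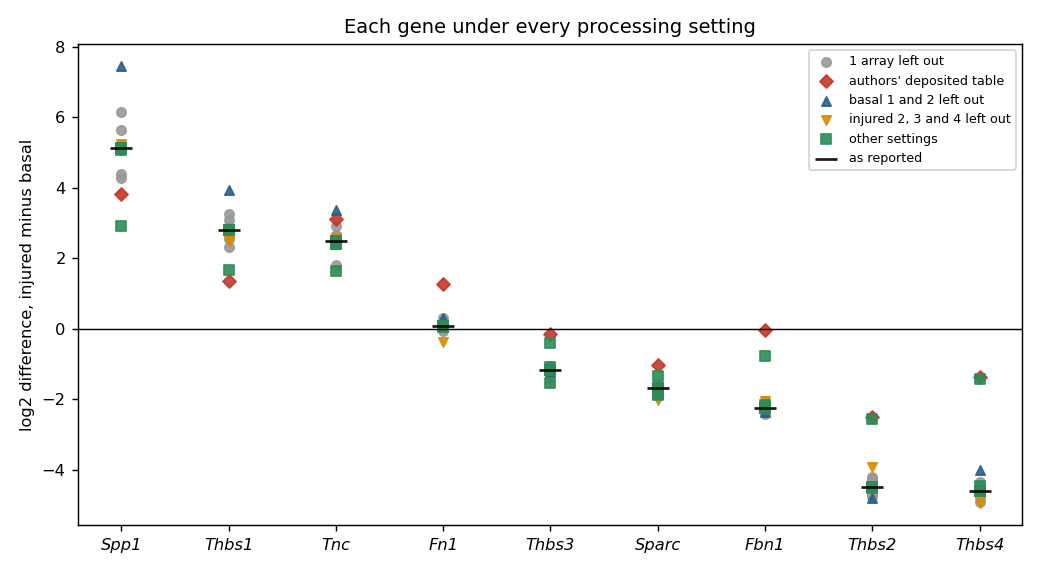
Log2 difference of injured minus basal arrays (y axis) for each tested gene under every setting tried, with the reported value as a black bar, single arrays left out in grey, and the authors' deposited table as red diamonds. Only Fn1 has values on both sides of 0, from -0.38 to 1.26, and Spp1 ranges from 2.91 to 7.45.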

How the data were processed

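Expression was measured on single-colour arrays. The deposited scanner files hold spot intensity values, from Agilent Feature Extraction, which per the file headers was version 10.7.3.1 and subtracted background and detrended within each array. The authors' deposited table holds log2 values with the same quantiles in all 8 columns. The submitters' processing notes name limma, and the steps behind those values are not given in any source used. They served as an alternative. Probe positions on mm9 are those in the array files.

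Processed signals were log2-transformed after division by the 75th percentile over the non-control spots of their array. Spots marked as outliers (1119) were left out and spots of a probe averaged. Probes were named through RefSeq by accession (26300), symbol (2044) or synonym (355), and 26982 stayed unnamed. The probe of highest mean stood for a gene, which was tested where 3 or more of 4 arrays in either group passed as well above background. The comparison used limma 3.58.1 (R 4.3.3, data.table version 1.17.8), two-sided, with Benjamini-Hochberg adjustment over 13434 genes, or 31315 probes for second probes. The fit was checked on simulated data.

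Named were all members with every probe, up to 3 rises and 3 falls per list, and for each called member and Fn1 the 3 genes with the highest r. Dspp, Fam20c and the marker genes named were outside that rule and chosen after their values were seen. The members and lists were chosen with earlier results of these data known. Alternatives were other normalizations, filters, probe rules and variance models, the replicate block, and arrays left out, which kept the same genes and probes.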

Additional observations from a re-analysis of the deposited data

Results flagged for a closer look

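The 2 groups of 4 arrays of each of the 13 probes were examined for an array far from the other 3, 26 groups in all, of which chance marks about 1 in 20. The dimmer Sparc probe lay at 4.41 on basal 4, with the next basal array at 3.79, and the brighter probe showed no such gap. Fbn1 lay at -3.52 on injured 4, with the next injured array at -2.72, and both were not well above background.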

How the results depend on the processing

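Leaving out 1 array at a time kept 3 members higher and 5 lower, and gave 4149 to 4850 genes higher and 2934 to 3453 lower, against 4766 and 3316 with all arrays. The difference of Fn1 changed sign within small values, from -0.055 to 0.31 over these, with -0.011 without injured 4 and -0.0026 without basal 2, and -0.38 with injured 1 alone. From the authors' deposited table, 757 genes and 2 members were called lower, with Fbn1 (-0.022), Thbs3 (-0.15) and Thbs4 (-1.37) not called. Among genes above background on all arrays 1 member was higher and 2 lower, since the others were not tested. With injured 1 alone 751 genes were higher, 980 lower and, by limma, 0 members higher and 5 lower (Spp1 5.24, Thbs1 2.48, Tnc 2.56, not called), at an unadjusted p under 0.05 for 4724 genes. The replicate number did not pair the samples: deviations of same-numbered arrays had correlations of -0.0098 to 0.19, and 2 of 4 injured arrays correlated best with their own number. The replicate block gave 0.079 for Fn1 (adjusted p = 0.844 in limma) and 5.12 for Spp1 (adjusted p = 0.00725 in limma) and kept the other members' calls. The slide could not be used as a block, since each slide held 1 group. Signal near background limits the sizes of Thbs4, Thbs3, Thbs2, Fbn1, Sparcl1, Vtn, Tnxb, Eln, Mmp2, Adamts1, Itga8 and Itgb5 and the basal levels of Spp1, Thbs1 and Itgb6.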

Other observations

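The columns of the authors' deposited table followed their own arrays unevenly. Over non-control spots, Pearson's r with the log2 processed signal of the same array, across spots that are not independent, was 0.85 to 0.94 for injured arrays. For basal arrays 1 to 4 it was 0.95, 0.76, 0.68 and 0.57. In that table Fn1 had 8.72, 9.90, 10.1 and 10.3 on injured arrays, against 10.6, 8.55, 8.07 and 6.79 on basal arrays, a spread among basal arrays that the scanner signals, at -0.50 to 0.60, do not have. The second Thbs3 probe had 11.3, 8.74, 9.10 and 8.96 on injured arrays, against 9.11, 11.9, 12.4 and 11.2 on basal arrays there. In the scanner files it lay at -3.98 to -2.64 on injured arrays and at -1.53 to -0.84 on basal arrays. The dimmer Tnc probe had 10.9, 9.72, 9.82 and 9.30 on injured arrays, against 8.46, 11.6, 12.7 and 12.2 on basal arrays in that table. In the scanner files it lay at -2.40 to -1.26 on injured arrays and at -5.01 to -3.22 on basal arrays.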
